A study of Rattus norvegicus with 9 samples.

Results

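A pair of treated states of the same cultured rat smooth muscle cells were set against each other, the libraries in the PDGF-NS columns and the libraries in the IGF-NS columns of the FPKM table, 3 of each and 6 of the 9 libraries in the series. The comparison covers the 11376 genes whose FPKM averaged at least 1 across the 9 libraries, out of 26407 rows, of which 10197 were at 0 in every library, and no measured difference was used to choose them. S31 cells are primary, wild-type smooth muscle cells that came from the microvessels of hearts of male Wistar Kyoto rats. All groups were held without serum for 48 h. Control cells then received fresh serum-free medium and were harvested at 24 h, and treated cells received a growth factor at 25 ng/ml, either rat PDGF-BB or human IGF-1, both recombinant.

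The sources disagree on which growth factor a treated set received. Records for PDGF-BB with harvest at 48 h name the IGF-NS columns, and records for IGF-1 with harvest at 24 h name the PDGF-NS columns. Each set is therefore called by its columns: PDGF-NS is IGF-1 at 24 h by record, and IGF-NS is PDGF-BB at 48 h by record. No expression value was used to settle the matter. Growth factor and harvest time differ together between the sets and cannot be told apart, and no 48 h control was analysed here. Separate cultures are not stated for the 3 libraries of a set, and a p-value therefore covers only how far these samples spread, perhaps for technical reasons.

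Vascular smooth muscle cells are not fixed in one state. In a vessel wall they hold actin, myosin and calponin-type proteins for contraction, under serum response factor and its partner myocardin, and in culture or after injury they can lower these proteins and divide, migrate or lay down matrix. PDGF-BB binds receptor tyrosine kinases that signal strongly through the MAP kinase ERK, and IGF-1 binds a receptor that signals mainly through IRS adaptors, PI3K and AKT. The title of the series asks whether the growth factors drive these cells to different states.

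Over the table, FPKM summed to 616765 to 675008 in the IGF-NS libraries and 687686 to 748000 in the PDGF-NS libraries. Relative depth, read from the steps between low values, spanned 0.72 to 1.16 for IGF-NS libraries and 0.85 to 1.41 for PDGF-NS libraries, with control library 1 set to 1, and absolute depth is unknown. Pearson r across genes was 0.960 to 0.975 within IGF-NS, 0.974 to 0.983 within PDGF-NS and 0.933 to 0.942 between the sets, on the log2(FPKM + 1) scale. Of 8 smooth muscle markers, summed expression was 2318 to 3316 FPKM in control, 499 to 527 FPKM in IGF-NS and 283 to 351 FPKM in PDGF-NS, and Myh11, the smooth muscle myosin heavy chain, was under 1 FPKM in all 6 treated libraries. Of the markers of other cell types, Ptprc (leukocytes), Cd3g, Cd8a and Ms4a1 (lymphocytes), Cdh5 and Kdr (endothelium) and Rgs5 (pericytes) were listed at 0 in all 6 treated libraries. A listed 0 does not show absence in this table, in which genes that every cell uses, such as Pgk1 and Lamp2, are also at 0. Other markers were detected: endothelial Erg at 1.43 to 5.66 FPKM and Egfl7 at 1.93 to 3.35 FPKM, mesothelial Upk3b at 56.3 to 294 FPKM and epithelial Krt8 at 8.87 to 14.5 FPKM over the 6 treated libraries. Summed endothelial markers were 4.14 to 6.55 FPKM in IGF-NS and 5.92 to 9.38 FPKM in PDGF-NS, and epithelial and mesothelial markers 67.3 to 308 FPKM and 87.1 to 165 FPKM. Summed cardiomyocyte markers were 8.73 to 19.8 FPKM in IGF-NS and 1.96 to 5.33 FPKM in PDGF-NS. Most of this was Tnnt2, a troponin, at 18.8, 9.24 and 8.09 against 3.01, 1.07 and 3.95 FPKM, called lower in PDGF-NS. Control held Tnnt2 at 9.73 to 21.2 FPKM, and Myh6, Myh7 and Nppa were listed at 0 in all 6 treated libraries. The part of all these markers in the differences between the sets was not tested.

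Below, a level is FPKM in a library, a log2 difference is PDGF-NS minus IGF-NS on log2(FPKM + 1) with its standard error from limma, and a ratio with the ending -fold is of mean FPKM. The log2 scale understates differences of low genes. A gene was called at a limma adjusted p under 0.05, Benjamini-Hochberg over 11376 genes.

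The sets differed in 1807 genes, 15.9% of those tested. Of these, 948 (8.33% of those tested) were higher in PDGF-NS and 859 (7.55%) were lower, and in 1797 the libraries of the sets did not overlap. Over all genes tested, all 3 PDGF-NS libraries lay above all IGF-NS libraries in 16.9% and below them in 19.4%. A log2 difference of at least 1 was reached by 427 of the higher and 300 of the lower genes. The direction split depended on scaling: as deposited 52.5% of called genes were higher in PDGF-NS, whereas with each library scaled to one common sum the counts were 736 higher and 1481 lower, or 33.2% higher, as this scaling moved the median difference of all genes from −0.02 to −0.14. Without PDGF-NS library 3 the number called was 1014.

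**Figure D1:**
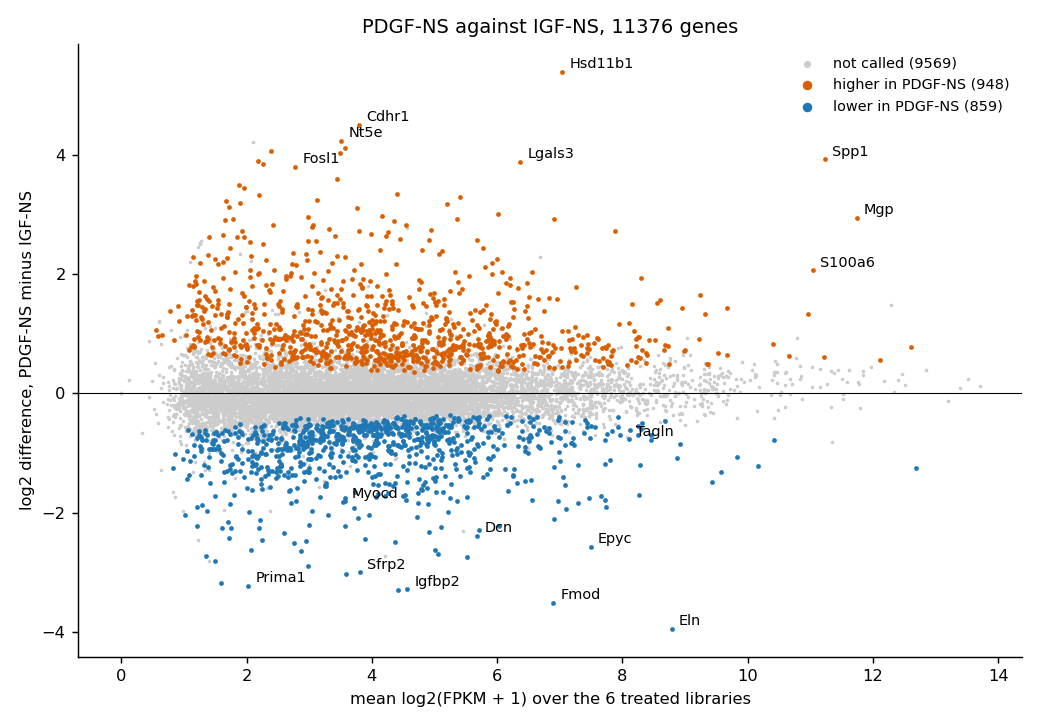
Log2 difference (PDGF-NS minus IGF-NS, y axis) against the mean log2(FPKM + 1) of the 6 treated libraries (x axis) for 11376 genes, with 948 genes called higher in orange, 859 called lower in blue and the rest in grey. Hsd11b1 lies at the top at 5.39 and Eln at the bottom at −3.95, and Spp1 and Mgp are among the most abundant genes that differ.

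On the log2(FPKM + 1) scale the largest difference was that of Hsd11b1 (ENSRNOG00000005861), which encodes the reductase that regenerates active glucocorticoid inside cells. By ratio of mean FPKM it was 43.1-fold, and genes low in IGF-NS, such as Ifitm1 (114-fold) and Klhl40 (95.2-fold), had larger ratios. The Ifitm1 ratio rests on IGF-NS values near the floor, 0, 0 and 0.304 FPKM. Hsd11b1 stood at 24.5, 20.3 and 14.5 FPKM in IGF-NS and at 821, 827 and 908 FPKM in PDGF-NS, beside 14.3, 20.8 and 18.9 FPKM in control. Of the IGF-NS libraries 2 lay within the control range and library 1 lay above it, and all 3 PDGF-NS libraries lay far above both groups, a log2 difference of 5.39 ± 0.19 (adjusted p = 8e-07). Of 14 genes tested from a list of glucocorticoid response genes, which holds Hsd11b1 itself, 3 were higher and 1 was lower. The shares of all genes were 8.33% and 7.55%, and the median log2 difference of the list was 0.52. Beside Hsd11b1 the higher genes were Cebpd and ERRFI1. For ERRFI1 the sets overlapped, and its call (adjusted p = 0.045) held in 8 of 18 alternatives. Sgk1, a kinase that glucocorticoids and serum can induce, was on the other side, at 70.6, 42.4 and 56.7 FPKM in IGF-NS against 11.4, 15.5 and 17.7 FPKM in PDGF-NS (log2 difference −1.85 ± 0.21, adjusted p = 0.00028).

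Large positive differences were also seen in single genes of other functions. Nt5e, the membrane enzyme that makes adenosine from AMP, was at 1.66, 1.68 and 1.54 FPKM in IGF-NS and at 37.6, 52 and 57.1 FPKM in PDGF-NS, 30.1-fold higher (log2 4.23 ± 0.17, adjusted p = 1.7e-06). Gja5, a gap junction connexin of arteries, was at 0.197, 0.271 and 0.336 FPKM in IGF-NS and at 12.1, 21.5 and 19.1 FPKM in PDGF-NS (log2 3.84 ± 0.24, adjusted p = 1.1e-05). Ramp3, a partner protein of the calcitonin receptor-like receptor, was at 0.18, 0.153 and 0.195 FPKM in IGF-NS and at 11.7, 12.9 and 10.7 FPKM in PDGF-NS. In these 3 genes the control libraries lay between the treated sets, and no libraries of different groups overlapped. Ptgs1, the constitutive cyclooxygenase, was 11.9-fold higher in PDGF-NS, and Anpep, a membrane aminopeptidase, was 8.37-fold higher. Rasd1, a small G protein that dexamethasone induces, was 30.9-fold higher with a wide spread, as PDGF-NS library 1 stood at 18.5 FPKM and the other PDGF-NS libraries at 83.8 and 73.1 FPKM.

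Genes of bone and cartilage formed the list with the highest share of higher members, cell type marker lists set aside. Of the 24 genes on the list 13 were tested. The others averaged under 1 FPKM, among them the bone genes Alpl, Bglap, Ibsp and Sp7 and the cartilage collagens Col2a1 and Col10a1. Of the 13 tested, 9 were higher in PDGF-NS, 0 were lower and 4 did not pass. Their median log2 difference was 0.99, against −0.02 over all genes. Spp1, which encodes osteopontin, an acidic phosphoprotein of bone and injured vessels, was at 627, 803 and 472 FPKM in IGF-NS and at 10807, 8041 and 9577 FPKM in PDGF-NS (log2 3.92 ± 0.31, adjusted p = 3.4e-05). Control was at 366, 906 and 583 FPKM, so the IGF-NS libraries overlapped control and the PDGF-NS libraries stood apart. Mgp, the matrix Gla protein that inhibits calcification, was at 1218, 1297 and 1177 FPKM in IGF-NS, 2797, 4670 and 5098 FPKM in control and 12599, 8729 and 7727 FPKM in PDGF-NS (log2 between the treated sets 2.94 ± 0.25, adjusted p = 5.1e-05).

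Sox9, the transcription factor of cartilage, followed the same order, with 7.9, 4.59 and 7.61 FPKM in IGF-NS and 31.9, 64.8 and 53.3 FPKM in PDGF-NS (log2 2.70 ± 0.28, adjusted p = 0.00018). Acan, the large proteoglycan aggrecan, was at 30.9, 44.1 and 57.5 FPKM in IGF-NS and at 204, 452 and 392 FPKM in PDGF-NS, 7.91-fold higher. Acan in control was 177 to 227 FPKM, so here it was IGF-NS that stood apart: against control the log2 difference was −2.16 (adjusted p = 0.0009) for IGF-NS and 0.76 (adjusted p = 0.079) for PDGF-NS. Against control, 8 of the 13 bone and cartilage genes rose and 3 fell in PDGF-NS (20.7% and 10.2% of all genes), and 2 rose and 6 fell in IGF-NS (17.4% and 7.48% of all genes), and these comparisons share the control libraries.

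**Figure D2:**
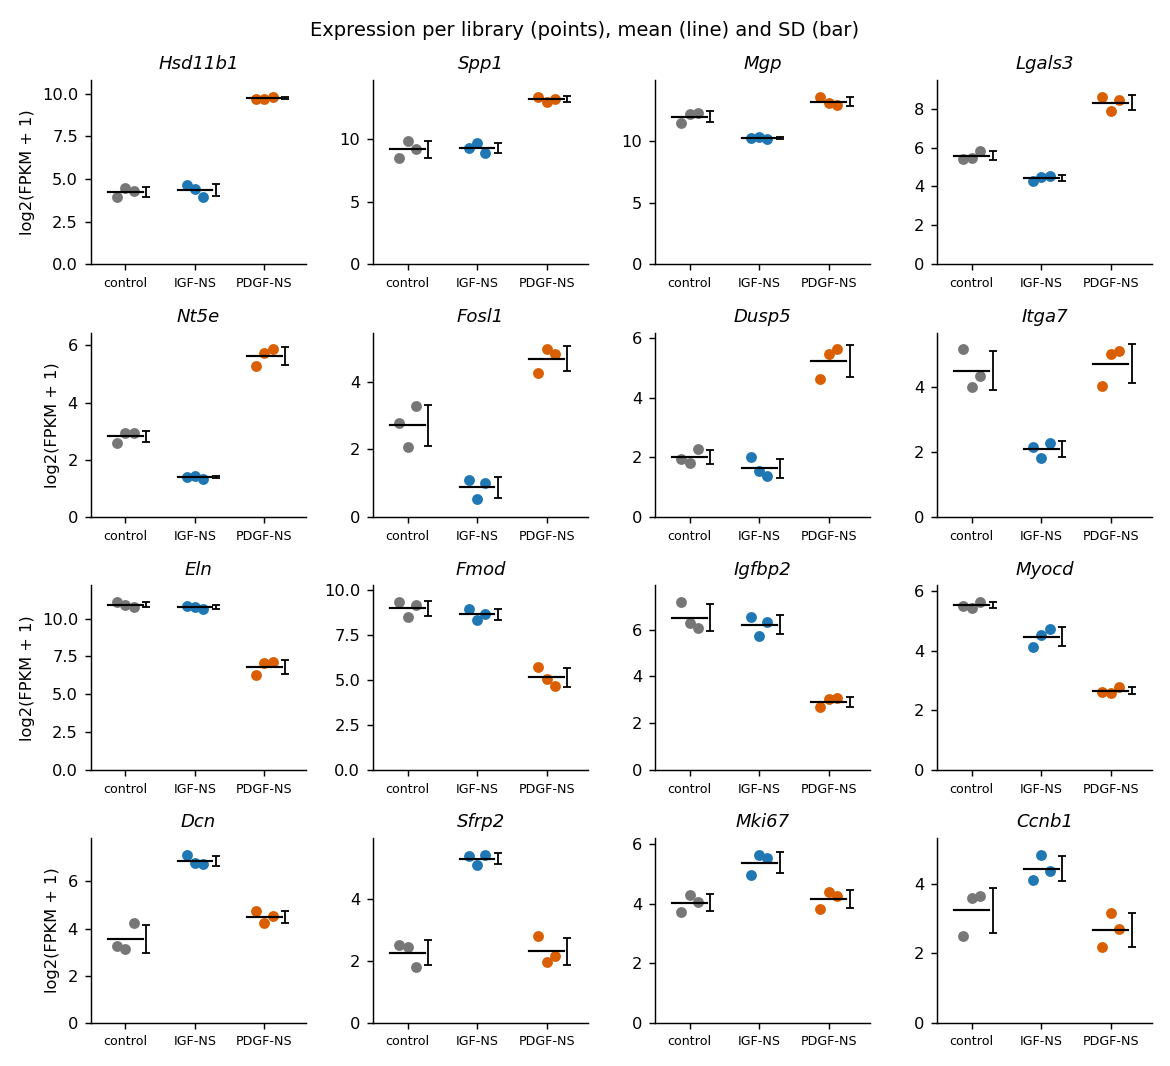
Expression of 16 genes as log2(FPKM + 1) in each library (points), with the mean of 3 libraries as a line and the SD as a bar, for control, IGF-NS and PDGF-NS. The first 8 panels hold genes higher in PDGF-NS, such as Hsd11b1 at 821 to 908 FPKM, and the last 8 hold genes lower there, such as Eln at 77.9 to 136 FPKM.

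Elastic fibre genes moved the other way. Of 18 tested, 8 were lower in PDGF-NS and 1, the lysyl oxidase-like Loxl3, was higher (median log2 difference −0.46), the latter not without IGF-NS library 2 or PDGF-NS library 2 or 3. Eln, which encodes elastin, the core protein of elastic fibres, was at 1857, 1762 and 1587 FPKM in IGF-NS, near its control level of 1748 to 2161 FPKM, and at 77.9, 130 and 136 FPKM in PDGF-NS. Eln was 15.1-fold lower in PDGF-NS (log2 −3.95 ± 0.20, adjusted p = 3.4e-06), and the sets did not overlap. On the log2(FPKM + 1) scale this was the largest negative difference among the genes named by the size rule. By ratio of mean FPKM, lower-expressed genes of that rule, such as Mfrp (99.6-fold) and Prima1 (34.8-fold), had larger ratios. The Mfrp ratio rests on PDGF-NS values near the floor, 0, 0.156 and 0.0441 FPKM, and a listed 0 may be a failed estimate. Lox, the lysyl oxidase that crosslinks elastin and collagen, was at 315, 314 and 501 FPKM in IGF-NS against 127, 111 and 96 FPKM in PDGF-NS (log2 −1.72 ± 0.19, adjusted p = 0.00027). Microfibril-associated Mfap4 and Mfap5 were 6.85-fold and 3.46-fold lower in PDGF-NS.

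Interstitial matrix genes were split, with 7 higher and 10 lower of 31. Fmod, fibromodulin, a proteoglycan that binds collagen fibrils, was among the lower genes, at 487, 322 and 406 FPKM in IGF-NS and 52.1, 31.8 and 23.9 FPKM in PDGF-NS (log2 −3.51 ± 0.29, adjusted p = 4.8e-05). Dcn, decorin, another such proteoglycan, was at 138, 108 and 107 FPKM in IGF-NS and 25.7, 17.7 and 21.9 FPKM in PDGF-NS (log2 −2.38 ± 0.27, adjusted p = 0.00028), whereas control held 7.79 to 17.7 FPKM, so Fmod and Dcn differed in which set was the one near control. Tnxb, tenascin-X, was 14.7-fold lower in PDGF-NS. Tgfbi, an integrin-binding matrix protein, was on the higher side, at 11.8, 12.5 and 9.41 FPKM in IGF-NS and 50.4, 64.8 and 77.3 FPKM in PDGF-NS (log2 2.40 ± 0.18, adjusted p = 2.5e-05), and both sets were above control. Of the 9 fibroblast markers, 7 reached 1 FPKM in a treated library, Tcf21 and Cd34 were at 0 in all 6, and the sum was 1950 to 2061 FPKM in IGF-NS and 907 to 1385 FPKM in PDGF-NS, most of it Lum, the proteoglycan lumican, with Dcn among the lower and Dpt among the higher members. Their part in the matrix differences was not tested. The count of higher interstitial genes was 4 without IGF-NS library 2, IGF-NS library 3 or PDGF-NS library 2.

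In the basement membrane list, 3 of 14 genes were higher and 2 were lower. The lower ones were Col4a1, the network-forming collagen chain (log2 −0.83 ± 0.11), and Nid1, the linker nidogen (log2 −0.98 ± 0.14). COL15A1, a collagen at the outer face of basement membranes, was 2.97-fold higher in PDGF-NS. Collagen processing genes went in both directions. Serpinh1, the collagen chaperone, was at 1427, 1210 and 1297 FPKM in IGF-NS and 501, 758 and 645 FPKM in PDGF-NS (log2 −1.06 ± 0.17, adjusted p = 0.0025). Plod1, which hydroxylates collagen lysines, was 1.78-fold higher. In the list of ER folding and secretion, 1 of 30 genes was higher and 4 were lower, or 3.33% and 13.3%, against 8.33% and 7.55% of all genes. P4ha3, a member of that list, was 1.75-fold lower (log2 −0.78 ± 0.14, adjusted p = 0.0039).

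Of 25 genes of matrix proteolysis, 9 were higher in PDGF-NS and 5 were lower. Serpine2, a secreted inhibitor of thrombin and plasminogen activators, was at 84, 90.7 and 97.3 FPKM in IGF-NS and 682, 584 and 550 FPKM in PDGF-NS (log2 2.72 ± 0.14, adjusted p = 3.4e-06). Mmp19, a metalloproteinase, was at 27.5, 29.4 and 28 FPKM in IGF-NS, beside 22.8 to 27.3 FPKM in control, and at 144, 133 and 137 FPKM in PDGF-NS (log2 2.25 ± 0.11, adjusted p = 3.4e-06). Adamts5, an aggrecan-cleaving protease, was lower in PDGF-NS, with 15.3, 12.4 and 10.8 FPKM against 2.82, 1.61 and 0.961 FPKM (log2 −2.35 ± 0.30, adjusted p = 0.00061). The 3 PDGF-NS libraries were thus higher in aggrecan and lower in this protease. Pi15, a secreted peptidase inhibitor, was at 59 to 71 FPKM in IGF-NS, against 4.59 to 6.66 FPKM in PDGF-NS and 1.95 to 4.43 FPKM in control. The count of lower proteolysis genes was 3 without IGF-NS library 3 or PDGF-NS library 2 and 2 without PDGF-NS library 3.

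Contractile genes were low in both treated sets and differed less between them. Of 29 tested, 23 fell in PDGF-NS against control (10.2% of all genes) and 20 fell in IGF-NS (7.48% of all genes). These comparisons share the controls. Between the treated sets 9 were lower in PDGF-NS, 5 were higher and 15 did not pass (median log2 difference −0.46). Myl9, the regulatory light chain of smooth muscle myosin, was at 433, 461 and 515 FPKM in IGF-NS and 201, 186 and 229 FPKM in PDGF-NS, beside 1167 to 1336 FPKM in control (log2 between the treated sets −1.19 ± 0.13, adjusted p = 0.00024). Tagln, the actin-binding protein SM22 alpha, was at 364, 367 and 342 FPKM in IGF-NS and 254, 186 and 193 FPKM in PDGF-NS (log2 −0.77 ± 0.18, adjusted p = 0.018), and Cnn1, calponin, at 32.5, 34.7 and 46.9 against 26.7, 20.5 and 20.2 FPKM (log2 −0.73 ± 0.21, adjusted p = 0.042). The sets did not overlap in these genes, but the calls of Tagln and Cnn1 each failed on leaving out 1 library (adjusted p up to 0.0807 for Tagln and 0.146 for Cnn1, both without PDGF-NS library 3, and also over the threshold without IGF-NS library 1 or 2 or PDGF-NS library 2, and for Cnn1 without IGF-NS library 3). The call of Cnn1 was also lost with a pseudocount of 5, with no filter on low values and with median ratio scaling.

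The members that were higher in PDGF-NS were mostly not filament proteins of contraction. Itga7, a laminin-binding integrin chain, was at 3.44, 2.56 and 3.91 FPKM in IGF-NS and at 15.5, 31.5 and 33.8 FPKM in PDGF-NS, which overlapped control at 15.2 to 34.9 FPKM (log2 between the treated sets 2.64 ± 0.33, adjusted p = 0.00058). Itga8, another integrin chain, was 2.11-fold higher in PDGF-NS and below control in both sets. Des, the intermediate filament desmin, was at 0.426, 0.326 and 0.152 FPKM in IGF-NS and 5.15, 5.52 and 4.85 FPKM in PDGF-NS (log2 2.25 ± 0.17, adjusted p = 2.9e-05). The 9 lower contractile genes were 3 without IGF-NS library 1, 5 without IGF-NS library 3 or PDGF-NS library 1, and 4 without PDGF-NS library 2 or 3. The 5 higher ones were 3 without IGF-NS library 1 or 2 or PDGF-NS library 2 or 3.

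Among regulators of the smooth muscle state, 3 of 20 were higher in PDGF-NS and 4 were lower. Myocd, the myocardin coactivator, was at 16.6, 22.2 and 25.7 FPKM in IGF-NS and 5.18, 4.94 and 5.89 FPKM in PDGF-NS, from 42 to 48.2 FPKM in control (log2 between the treated sets −1.81 ± 0.16, adjusted p = 7.2e-05). Gata6, a transcription factor of quiescent smooth muscle, was 2.48-fold lower in PDGF-NS (log2 −1.27 ± 0.14, adjusted p = 0.00028). Lmcd1, a LIM protein that binds GATA factors, was lowest in IGF-NS, at 14, 12.8 and 16.3 FPKM, against 44.2, 113 and 96.7 FPKM in PDGF-NS and 272 to 420 FPKM in control. Srf itself was at 7.65, 5.66 and 10.2 FPKM in IGF-NS and 8.06, 8.79 and 9.1 FPKM in PDGF-NS, a log2 difference of 0.16 ± 0.23 that did not pass (adjusted p = 0.71), and Klf4, a repressor of contractile genes, differed by 0.47 ± 0.20 (adjusted p = 0.15). The 3 higher calls were 1 without control library 2 or 3, IGF-NS library 1 or 2, or PDGF-NS library 2 or 3, and 5 without PDGF-NS library 1.

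**Figure D3:**
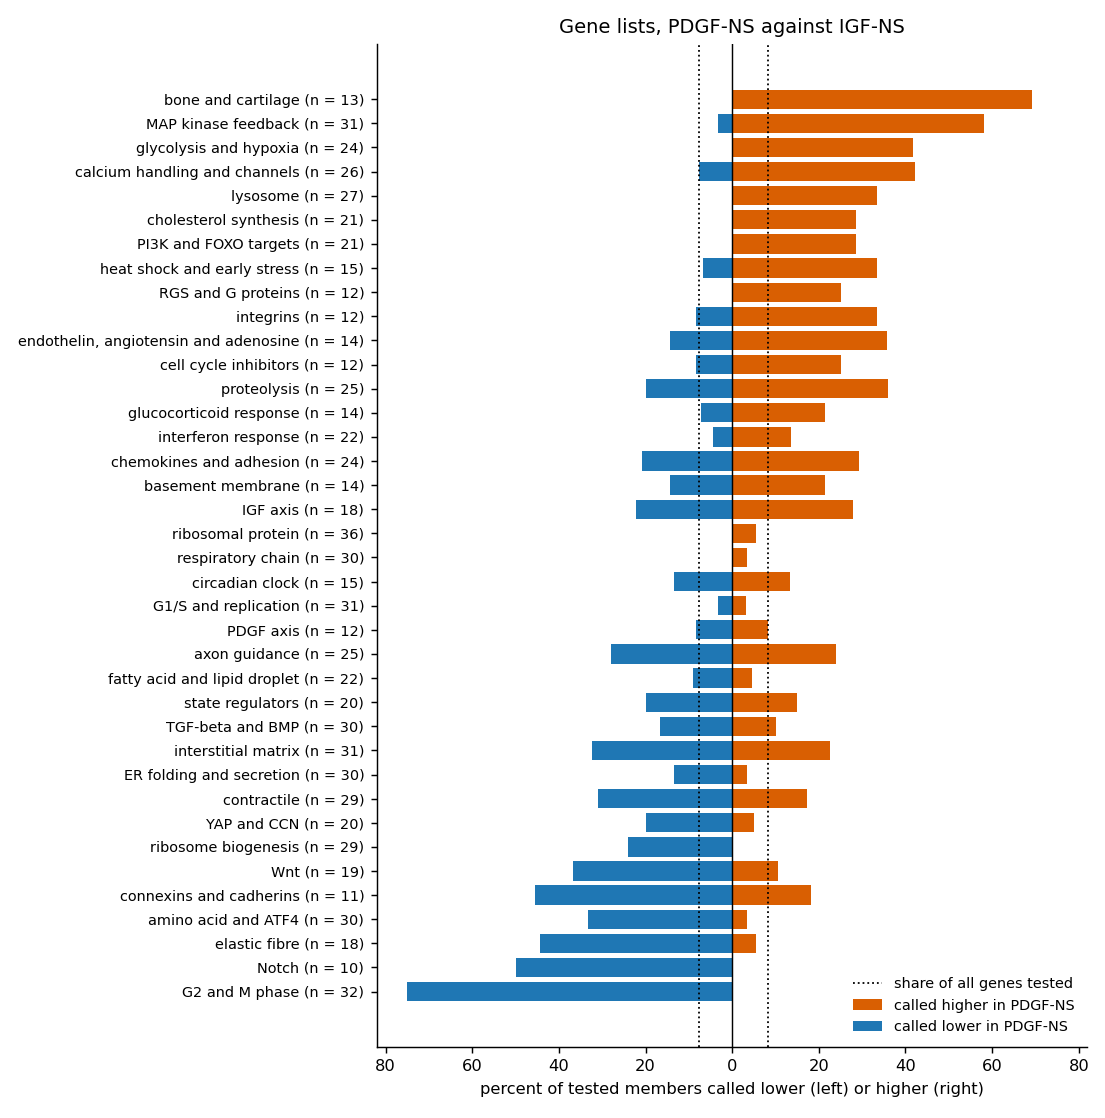
Percent of tested members of each gene list called higher in PDGF-NS (orange, to the right) or lower (blue, to the left), with the number of tested members n, and dotted lines at the share of all genes tested, 8.33% higher and 7.55% lower. Of the lists drawn, bone and cartilage has the highest share of higher genes, 9 of 13, and G2 and M phase the highest share of lower genes, 24 of 32.

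Feedback and early genes of the MAP kinase route were higher in PDGF-NS. ERK signalling induces AP-1 and EGR factors, and it also induces dual-specificity phosphatases and Sprouty-type proteins that shut it down. Of 31 such genes tested, 18 were higher, 1 was lower (Dusp10, not called without IGF-NS library 1 or PDGF-NS library 2 or 3) and 12 did not pass, with a median log2 difference of 1.15. Dusp6, the phosphatase of cytoplasmic ERK, was at 3.85, 4.7 and 4.84 FPKM in IGF-NS, 14.3 to 16.5 FPKM in control and 22, 41 and 46.2 FPKM in PDGF-NS (log2 between the treated sets 2.71 ± 0.24, adjusted p = 6.5e-05). Dusp5, the phosphatase of nuclear ERK, was at 2.99, 1.91 and 1.6 FPKM in IGF-NS and 23.7, 43.1 and 48.1 FPKM in PDGF-NS (log2 3.60 ± 0.27, adjusted p = 2.7e-05).

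Fosl1, an AP-1 subunit, was at 1.15, 0.438 and 1.03 FPKM in IGF-NS, 3.22 to 8.67 FPKM in control and 18.2, 30 and 27.1 FPKM in PDGF-NS (log2 3.79 ± 0.30, adjusted p = 4.1e-05). Junb, another AP-1 subunit, was at 8.76, 5.87 and 9.31 FPKM in IGF-NS and 47.6, 38.4 and 125 FPKM in PDGF-NS, where library 3 was the highest. Library 1 was the lowest of the PDGF-NS libraries for Dusp5, Dusp6 and Fosl1. The count of higher genes was 11 without IGF-NS library 2 and 10 without PDGF-NS library 3. Against control, 11 of the 31 rose and 5 fell in PDGF-NS (20.7% and 10.2% of all genes). In IGF-NS, 1 rose and 19 fell (17.4% and 7.48% of all genes).

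**Figure D4:**
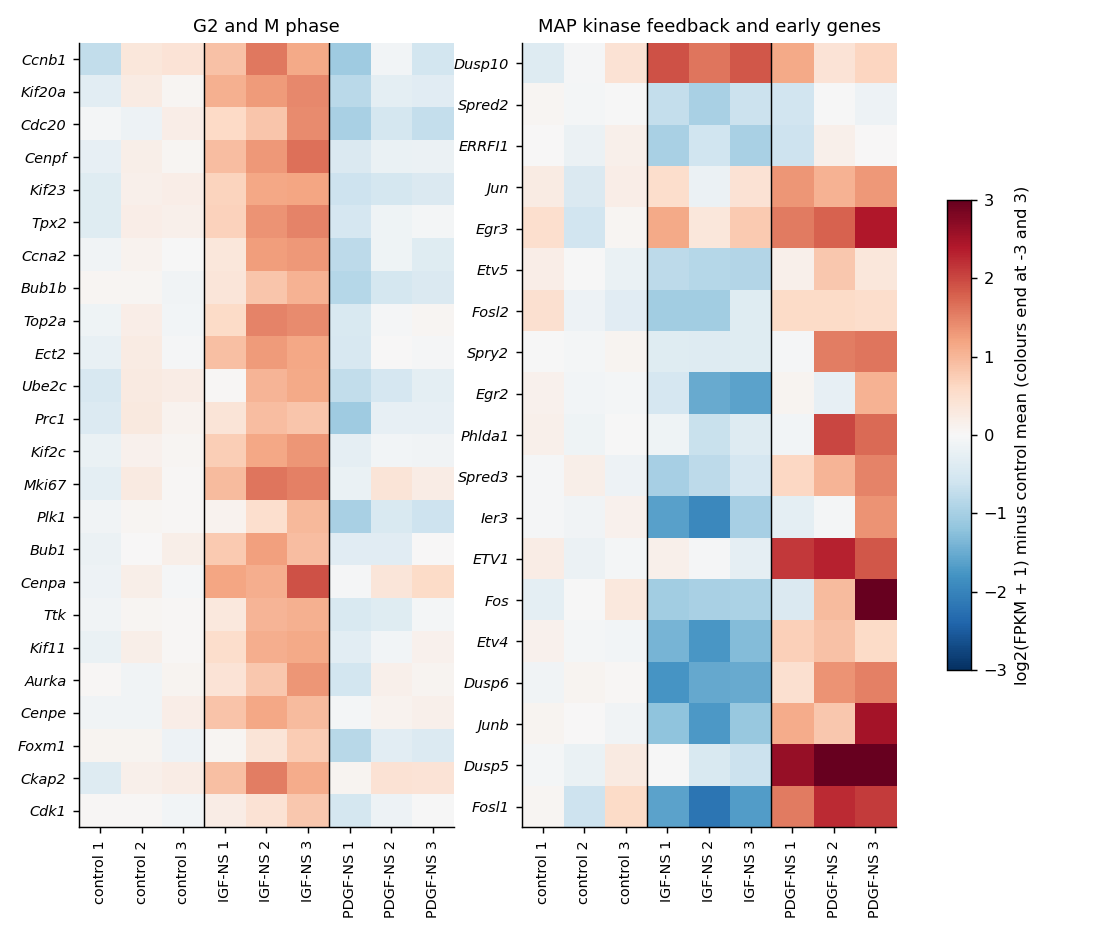
Log2(FPKM + 1) minus the control mean (colour, ending at −3 and 3) in each of the 9 libraries for the 24 called genes of the G2 and M phase list (left) and the 19 called genes of the MAP kinase feedback list (right). Most G2 and M genes are red in the IGF-NS libraries, and 18 of the 19 feedback genes are higher in PDGF-NS than in IGF-NS, with Dusp10 the exception.

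Promoters of members were searched, as the data show early genes moving together. RefSeq promoters (build GRCr8) were matched for 7865 of 11246 tested symbols, and the 250 bases before each start were searched on both strands for the AP-1 motif TGANTCA and for the CArG box, the site of serum response factor, and no AP-1 match overlapped a CArG box in the sequences shown. AP-1 was found in 6.58% of 684 matched genes higher in PDGF-NS, 4.0% of 625 lower genes, 4.04% of all tested genes matched and 6.36% of all 27457 promoters in the table. A CArG box was found in 2.05%, 1.12%, 1.27% and 1.5% of the same sets, and in 4 of 25 promoters of the MAP kinase feedback list (16.0%), in which AP-1 was found in 0. In the contractile list AP-1 was found in 4 of 23 promoters (17.39%) and a CArG box in 2 (8.7%). Of the called genes with a match, 3 were chosen after their values were seen and are shown with the match in capitals. Dusp5 (chr1:262543524-262543773, plus strand) holds CArG boxes that begin 82 and 72 bases before the start. Egr2 (chr20:21054442-21054691, minus strand), an early zinc finger factor at 3.73, 1.35 and 1.21 FPKM in IGF-NS and 6.09, 4.61 and 12.7 FPKM in PDGF-NS, holds one 83 bases before, and Ccl7 (chr10:67513845-67514094, plus strand), a monocyte chemokine, holds an AP-1 match 73 bases before.
Dusp5: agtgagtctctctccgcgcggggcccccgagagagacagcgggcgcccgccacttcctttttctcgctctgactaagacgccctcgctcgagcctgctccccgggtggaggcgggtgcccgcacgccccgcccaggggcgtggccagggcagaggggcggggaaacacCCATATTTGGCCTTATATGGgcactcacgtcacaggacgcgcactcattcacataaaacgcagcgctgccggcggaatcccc
Egr2: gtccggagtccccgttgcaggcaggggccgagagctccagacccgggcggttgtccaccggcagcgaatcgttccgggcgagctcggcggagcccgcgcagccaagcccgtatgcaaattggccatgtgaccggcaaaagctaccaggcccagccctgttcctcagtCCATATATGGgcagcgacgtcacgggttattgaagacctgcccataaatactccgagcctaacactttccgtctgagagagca
Ccl7: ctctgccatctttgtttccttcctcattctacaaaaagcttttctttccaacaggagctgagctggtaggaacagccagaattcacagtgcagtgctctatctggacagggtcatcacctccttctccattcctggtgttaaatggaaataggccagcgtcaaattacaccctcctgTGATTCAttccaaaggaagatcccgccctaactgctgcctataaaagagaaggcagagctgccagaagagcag
A match is only a match of letters, and no binding was measured.

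Genes of the G2 and M phases were lower in PDGF-NS, and of these none was higher. Of 32 tested, 24 were lower, 0 were higher and 8 did not pass, with a median log2 difference of −1.19. Ccnb1, the cyclin of mitotic entry, was at 16.4, 27.6 and 19.9 FPKM in IGF-NS and 3.56, 8.03 and 5.5 FPKM in PDGF-NS, which overlapped control at 4.65 to 11.6 FPKM (log2 between the treated sets −1.76 ± 0.34, adjusted p = 0.0064). Mki67, the proliferation marker, was at 30.4, 49 and 45.9 FPKM in IGF-NS and 13.3, 20.4 and 18.2 FPKM in PDGF-NS (log2 −1.22 ± 0.22, adjusted p = 0.0047), with control at 12.3 to 18.8 FPKM. Against control, 22 of the 32 rose and 0 fell in IGF-NS (17.4% and 7.48% of all genes). In PDGF-NS, 1 rose and 3 fell (20.7% and 10.2% of all genes).

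Kif20a, a kinesin of cell division, was 3.61-fold lower in PDGF-NS, and Cenpf, a kinetochore protein, was 4.01-fold lower. Cdc20, an activator of the anaphase-promoting complex, was at 23.1, 27.2 and 41.1 FPKM in IGF-NS and 7.05, 9.96 and 8.71 FPKM in PDGF-NS (log2 −1.69 ± 0.21, adjusted p = 0.00054). IGF-NS library 1 was the lowest of its set in each of Ccnb1, Mki67, Kif20a, Cenpf and Cdc20, and the sets still did not overlap.

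Genes of entry into and passage through S phase did not follow. Of 31 tested, 1 was higher and 1 lower in PDGF-NS and 29 did not pass (median −0.18). The higher one was Ccnd1, cyclin D1, the cyclin that mitogens induce in G1, at 34.6, 43.2 and 53.4 FPKM in IGF-NS, 81.2 to 87.5 FPKM in control and 106, 156 and 120 FPKM in PDGF-NS (log2 1.52 ± 0.18, adjusted p = 0.00039). The lower one was Tk1, thymidine kinase, at 22.6, 26 and 45.7 against 7.64, 11.6 and 11.1 FPKM (adjusted p = 0.006). Of 12 inhibitors and brakes of the cycle, 3 were higher and 1, Cdkn2c, was lower, which did not hold without IGF-NS library 1 or 3 or PDGF-NS library 1 or 2. Cdkn2b, an inhibitor of the cyclin D kinases, was at 23, 23.8 and 21.5 FPKM in IGF-NS and 105, 73.9 and 61.5 FPKM in PDGF-NS (log2 1.74 ± 0.21, adjusted p = 0.00049), with control at 9.32 to 15.5 FPKM, so Ccnd1 and Cdkn2b were both higher in the libraries where G2 and M genes were lower. Without IGF-NS library 3 the higher inhibitors numbered 5.

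Genes of the IGF axis itself were divided. Of 18 tested, 5 were higher in PDGF-NS and 4 were lower (median −0.47). Igf1r, the IGF-1 receptor, was at 17, 17.4 and 21.5 FPKM in IGF-NS and 32.2, 33.2 and 28.2 FPKM in PDGF-NS (log2 0.72 ± 0.13, adjusted p = 0.0044), and Irs2, an adaptor of the receptor, at 6.52, 6.19 and 9.14 against 16.5, 21.3 and 18.3 FPKM (log2 1.26 ± 0.22, adjusted p = 0.0034). Both were below control in both sets, at 57.5 to 66.4 and 32.3 to 58 FPKM there. The insulin receptor Insr (log2 −0.21 ± 0.14, adjusted p = 0.38) and the adaptor Irs1 (log2 −0.69 ± 0.25, adjusted p = 0.085) did not pass.

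Binding proteins, which hold IGFs outside cells, went in opposite directions. Igfbp2 was at 91.1, 52.7 and 80 FPKM in IGF-NS, within the control range of 66.9 to 144 FPKM in 2 of 3 libraries, and at 5.42, 7.12 and 7.33 FPKM in PDGF-NS (log2 −3.28 ± 0.29, adjusted p = 6.5e-05). Igfbp5 was at 24.7, 11.7 and 22.7 FPKM in IGF-NS and 43.4, 148 and 79.4 FPKM in PDGF-NS, against 0.431 to 1.13 FPKM in control (log2 between the treated sets 2.04 ± 0.40, adjusted p = 0.0073). Igfbp5 was thus above control in both sets and highest in PDGF-NS, where the libraries spread widely. Without IGF-NS library 1 the lower genes of the axis numbered 2.

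PDGF ligands and receptors were called at about the share of all genes. Of 12 genes, 1 was higher and 1 was lower (median −0.12), or 8.33% each, against 8.33% and 7.55% of all genes tested. The higher one, the ligand Pdgfa, was just past the threshold (adjusted p = 0.049) and held only without IGF-NS library 3 or PDGF-NS library 1 of the 9 libraries left out in turn. The receptors did not pass: Pdgfrb was at 523, 370 and 493 FPKM in IGF-NS and 319, 348 and 318 FPKM in PDGF-NS (log2 −0.48 ± 0.19, adjusted p = 0.12), and Pdgfra at 24.3, 20.6 and 19.5 against 26.6, 30.2 and 26.7 FPKM (log2 0.36 ± 0.14, adjusted p = 0.1). The libraries of the sets did not overlap in these receptor genes. The ligand Pdgfd was 3.05-fold lower in PDGF-NS (log2 −1.36 ± 0.22, adjusted p = 0.0022). Of 21 PI3K and FOXO target genes, 6 were higher and 0 lower in PDGF-NS, among them Txnip, an arrestin-fold protein that restrains glucose uptake (log2 0.92 ± 0.17, adjusted p = 0.0044), and Foxo1 itself, counted with the state regulators, was 1.85-fold lower.

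Metabolic genes set the states apart in several routes. Of 24 genes of glycolysis and hypoxia 10 were higher in PDGF-NS and 0 were lower (median 0.63). Eno1, the glycolytic enolase, was at 22.7, 16.4 and 20.7 FPKM in IGF-NS and 33, 63.2 and 58.7 FPKM in PDGF-NS (log2 1.29 ± 0.24, adjusted p = 0.0049), and Ndrg1, a hypoxia-inducible protein, at 21.6, 8.84 and 13.1 against 39.1, 52.1 and 54.6 FPKM (log2 1.75 ± 0.29, adjusted p = 0.0025). PDGF-NS library 1 was the lowest of its set for both genes and the sets did not overlap. The 10 higher genes were 6 without any one of the IGF-NS libraries and 5 without PDGF-NS library 2 or 3.

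Of 21 genes of cholesterol synthesis, 6 were higher in PDGF-NS and 0 were lower (median 0.45). Hsd17b7, a reductase of the pathway, was at 7.31, 12.2 and 7.83 FPKM in IGF-NS and 51.7, 37 and 42.3 FPKM in PDGF-NS (log2 2.16 ± 0.31, adjusted p = 0.0013). Insig1, the sterol sensor partner that sterol shortage induces, was at 37.1, 60.3 and 64.1 FPKM in IGF-NS and 154, 129 and 158 FPKM in PDGF-NS (log2 1.46 ± 0.28, adjusted p = 0.0055). The cholesterol count was 3 without IGF-NS library 1 or PDGF-NS library 3. Genes of fatty acids and lipid droplets were called at about the share of all genes. Of 22 tested, 1 was higher in PDGF-NS and 2, Fads2 and Me1, were lower, or 4.55% and 9.09%, against 8.33% and 7.55% of all genes. The higher one was Plin2, the lipid droplet coat protein, at 2.67-fold. Pparg, the lipid-sensing nuclear receptor, was 2.34-fold higher. Pparg is also on the adipocyte marker list, of which Fabp4 was listed at 0 in the 3 IGF-NS libraries and was at 0.302 to 1.41 FPKM in PDGF-NS, Cidec was listed at 0 in all 6, and the part of these markers was not tested. The call of Fads2 failed without any one of the 6 treated libraries (adjusted p up to 0.0896).

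Amino acid and ATF4 target genes were lower in PDGF-NS: 10 of 30 were lower and 1 was higher (median −0.44). Phgdh, the first enzyme of serine synthesis, was at 68.6, 56.9 and 78.8 FPKM in IGF-NS and 18.5, 27.6 and 31.8 FPKM in PDGF-NS (log2 −1.38 ± 0.24, adjusted p = 0.0036), and Pycr1, of proline synthesis, was 3.21-fold lower. Chac1, a glutathione-degrading enzyme of the ATF4 response, was 2.43-fold lower. Of 29 ribosome biogenesis genes 7 were lower and 0 higher (median −0.32), led by Myc, the growth-promoting transcription factor, at 58.6, 57.8 and 67.1 FPKM in IGF-NS and 18.8, 19.6 and 18 FPKM in PDGF-NS (log2 −1.65 ± 0.16, adjusted p = 0.00011). Without 1 library the amino acid count was 5 (IGF-NS library 1) or 6 (PDGF-NS library 3). The ribosome biogenesis count was 2 without IGF-NS library 1 or PDGF-NS library 3, 3 without control library 2 or PDGF-NS library 1, and 4 without IGF-NS library 3 or PDGF-NS library 2.

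Lysosomal genes were higher in PDGF-NS in 9 of 27 cases and lower in 0 (median 0.38). Lgals3, galectin-3, a sugar-binding protein that gathers on damaged lysosomes, was at 18.2, 21.7 and 22.1 FPKM in IGF-NS, 42.3 to 56.2 FPKM in control and 394, 232 and 349 FPKM in PDGF-NS (log2 between the treated sets 3.88 ± 0.20, adjusted p = 3.4e-06). Ctsb, the protease cathepsin B, was at 504, 507 and 470 FPKM in IGF-NS and 1517, 1207 and 1301 FPKM in PDGF-NS (log2 1.44 ± 0.13, adjusted p = 7.1e-05). Gpnmb, a transmembrane glycoprotein of lysosome-rich cells, was at 241, 232 and 201 FPKM in IGF-NS and 1000.3, 562 and 529 FPKM in PDGF-NS, with library 1 the highest.

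Macrophage markers moved with these genes. The 9 found in the table summed to 22.6 to 30.8 FPKM in IGF-NS and 43.6 to 89.5 FPKM in PDGF-NS, most of it Cd14, at 22.5, 29.9 and 26.4 against 80.1, 42.1 and 56.7 FPKM. Cd68 was at 9.37 FPKM in PDGF-NS library 1, at 1.39 and 2.13 FPKM in the other PDGF-NS libraries and at 0.112 to 0.784 FPKM in IGF-NS, and 6 of the 9, among them Ptprc, Itgam, Tyrobp and Mrc1, were at 0 in all 6 treated libraries. The call of Cd68 failed without IGF-NS library 1 or 3, PDGF-NS library 3 or control library 2 (adjusted p up to 0.108), and its log2 difference was 1.71, or 1.07 without PDGF-NS library 1. In bulk RNA, more cells of a type and more RNA per cell cannot be told apart, and the part of these markers in the result was not tested.

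Chemokines and adhesion molecules were split, with 7 of 24 higher and 5 lower (median 0.28). These are 29.2% and 20.8%, against 8.33% and 7.55% of all genes. The genes given next, Ccl2, Ccl7 and Il6, come from the higher side only. Ccl2, the monocyte chemoattractant, was at 5.91, 6.07 and 7.71 FPKM in IGF-NS and 41.2, 45.9 and 85.5 FPKM in PDGF-NS (log2 2.88 ± 0.43, adjusted p = 0.0015). Ccl7, whose promoter is printed above, was at 5.48, 6.33 and 4.54 FPKM in IGF-NS and 25.1, 66.5 and 70.6 FPKM in PDGF-NS (log2 2.97 ± 0.39, adjusted p = 0.00067). The cytokine gene Il6 was at 0.112, 0.568 and 0.122 FPKM in IGF-NS and at 4.41, 7.82 and 16.8 FPKM in PDGF-NS (log2 2.92 ± 0.39, adjusted p = 0.00081).

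Ion channels and calcium handling had 11 of 26 genes higher in PDGF-NS and 2 lower (median 0.32). Trpc6, a receptor-operated cation channel of vascular muscle, was at 2.21, 2.14 and 2.03 FPKM in IGF-NS and 16.7, 23.5 and 22.5 FPKM in PDGF-NS, within the control range of 14.8 to 31.1 FPKM (log2 between the treated sets 2.79 ± 0.25, adjusted p = 7.6e-05). Trpv2, another cation channel, was at 1.1 to 1.41 FPKM in control, 0.952 to 1.09 FPKM in IGF-NS and at 7.19, 19.3 and 16.7 FPKM in PDGF-NS. Itpr3, a calcium release channel of the endoplasmic reticulum, was 4.89-fold higher, and ABCC9, the sulfonylurea receptor subunit of vascular potassium channels, was 2.41-fold higher. Against control, Trpc6 fell in IGF-NS (log2 −2.70, adjusted p = 9.4e-05), and Trpv2 rose in PDGF-NS (log2 2.66, adjusted p = 0.00013). Of the pericyte markers, ABCC9 and Anpep were higher in PDGF-NS and Notch3 and Mcam lower (median of 5 tested −0.84). Their sum was 174 to 179 FPKM in IGF-NS and 304 to 428 FPKM in PDGF-NS, Rgs5 and Higd1b were listed at 0 in the 6 treated libraries, and their part was not tested. The call of Mcam failed without PDGF-NS library 1 or 3 (adjusted p up to 0.0628).

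Vasoactive and contact genes differed too. Of 14 endothelin, angiotensin and adenosine genes tested, 5 were higher in PDGF-NS and 2, Npr3 and Gucy1b3, were lower (median 0.41). The shares of all genes were 8.33% and 7.55%. Among the higher ones were Nt5e, described above, and Ece1, which was 2.31-fold higher (log2 1.21 ± 0.21, adjusted p = 0.0031). Npr3, the clearance receptor of natriuretic peptides, was at 29, 27 and 26.3 FPKM in IGF-NS and 7.65, 5.38 and 4.41 FPKM in PDGF-NS (log2 −2.09 ± 0.21, adjusted p = 0.00014), and Gucy1b3, a subunit of the nitric oxide receptor, was 2.73-fold lower in PDGF-NS. Of 12 integrin genes 4 were higher and 1 was lower: Itga5, the fibronectin receptor chain, was at 45.4, 44.4 and 54.8 FPKM in IGF-NS and 104, 110 and 106 FPKM in PDGF-NS (log2 1.14 ± 0.14, adjusted p = 0.0004). Cdh2, the N-cadherin of smooth muscle contacts, was 2.44-fold lower in PDGF-NS. Of 11 connexin and cadherin genes 2, Gja5 and Gja1, were higher and 5 lower. The higher ones were 1 without control library 2 or any one of the treated libraries, and the lower ones were 3 without PDGF-NS library 1 and 2 without PDGF-NS library 3.

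Notch and Wnt genes were mostly lower in PDGF-NS among those called. Of 10 Notch genes 5 were lower and 0 higher (median −0.59). Notch3, the Notch receptor of mural cells, was at 48.8, 44.5 and 57.9 FPKM in IGF-NS and 13, 19.4 and 16.3 FPKM in PDGF-NS (log2 −1.58 ± 0.25, adjusted p = 0.0022), and its ligand Jag1 at 56.8, 62.7 and 72.6 against 26.3, 18.9 and 20.6 FPKM (log2 −1.51 ± 0.16, adjusted p = 0.00018). Of 19 Wnt genes 7 were lower and 2 higher (median −0.48). Sfrp2, a secreted modulator of Wnt ligands, was at 40.9, 33.8 and 42.1 FPKM in IGF-NS and 5.98, 2.92 and 3.5 FPKM in PDGF-NS, which overlapped control at 2.52 to 4.78 FPKM (9.42-fold lower between the treated sets, adjusted p = 4.7e-05), and Wnt5a, a ligand, was on the higher side at 3.29 to 6.33 against 1.29 to 1.62 FPKM. The Notch count was 3 without IGF-NS library 1 or 3 or PDGF-NS library 1 or 2.

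Some genes lay on opposite sides of control in the treated sets. A total of 81 genes, 0.712% of those tested, were called against control in both sets with opposite signs: 45 were above control in PDGF-NS and below it in IGF-NS, and 36 the reverse. Both contrasts use the same 3 control libraries. All 81 were also called between the treated sets, and in 80 all 9 libraries stood in order, Sulf2 being the exception; over all genes that order was met by 0.976% with PDGF-NS on top and 1.14% with IGF-NS on top. The count was 40 without control library 2, 50 without control library 3 and 47 without PDGF-NS library 3, and 24 of the 81 genes held in every alternative in which they were tested.

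Among those 24, Fxyd5, a regulator of the sodium pump, was at 13.5, 13 and 15.2 FPKM in IGF-NS, 34.5, 41.6 and 42.1 FPKM in control and 102, 109 and 124 FPKM in PDGF-NS. Its log2 difference from control was −1.44 (adjusted p = 8.3e-05) in IGF-NS and 1.48 (adjusted p = 3.4e-05) in PDGF-NS, distances of like size. Cdhr1, a cadherin-related protein, was at 1.54 to 2.13, 4 to 7.84 and 56.8 to 72.5 FPKM in the same order, so its rise in PDGF-NS (log2 3.25) had a larger estimate than its fall in IGF-NS (log2 −1.25). Npas2, a transcription factor of the clock, was at 0.59, 0.432 and 0.385 FPKM in IGF-NS, 1.67 to 3.07 FPKM in control and 5.23, 7.98 and 5.26 FPKM in PDGF-NS. Lgals3, Nt5e, Gja5, Fosl1, Dusp6, Mgp, Sox9 and Des, described above, belonged to the 24 as well.

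Further members of the 24 were chosen after their values were seen. Cd44, the hyaluronan receptor, was at 12, 16.4 and 13.8 FPKM in IGF-NS, 22.8, 26.9 and 40.7 FPKM in control and 85.6, 65.8 and 73.5 FPKM in PDGF-NS (log2 between the treated sets 2.34 ± 0.21, adjusted p = 7.3e-05). Glul, glutamine synthetase, was at 38.2, 36.2 and 41.2, 83.6, 68 and 80.7, and 164, 129 and 124 FPKM in that order (log2 1.82 ± 0.14, adjusted p = 3.2e-05). In both genes the 3 groups formed separate steps with no overlap.

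On the reverse side, Prima1, which anchors acetylcholinesterase in membranes, was at 10.1, 9.76 and 15.1 FPKM in IGF-NS, 1.91 to 2.72 FPKM in control and 0.304, 0.412 and 0.286 FPKM in PDGF-NS (log2 between the treated sets −3.22 ± 0.19, adjusted p = 1e-05). Kif26b, a kinesin family member that affects cell shape and adhesion, was at 24.9, 15.2 and 22.9, 4.42 to 7.94, and 2.27, 1.78 and 1.72 FPKM in that order (log2 −2.89 ± 0.23, adjusted p = 4.3e-05). Ntrk3, the receptor of neurotrophin-3, was at 46.1, 42.8 and 55.9 FPKM in IGF-NS, 25.6 to 30.5 FPKM in control and 5.92, 8.33 and 9.24 FPKM in PDGF-NS (log2 −2.49 ± 0.17, adjusted p = 2e-05). Mest, an imprinted hydrolase-like gene, was 6.76-fold lower in PDGF-NS than in IGF-NS with control between them at 24.4 to 32.7 FPKM. These 4 also held in every alternative in which they were tested.

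**Figure D5:**
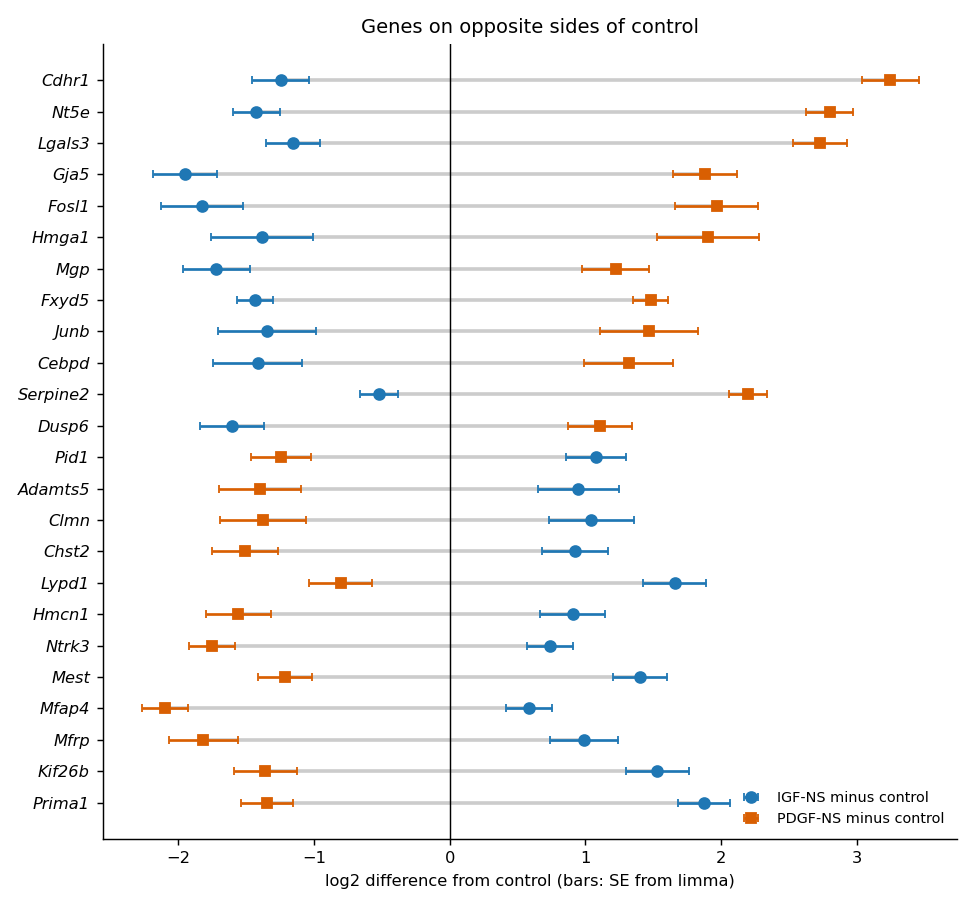
Log2 difference from control in IGF-NS (blue circles) and PDGF-NS (orange squares), with limma standard errors as bars, for the 24 genes of the naming rule on opposite sides of control, 12 of each orientation. These were picked by size and are not the same set as the 24 that held in every alternative. Of the genes drawn, Cdhr1 kept this status in 17 of 17 alternatives, but Adamts5 in 6 of 17 and Clmn in 3 of 16. The upper 12 genes have PDGF-NS above control, led by Cdhr1 at 3.25 against −1.25, and the lower 12 have PDGF-NS below control, ending with Prima1 at −1.35 against 1.87.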

How the data were processed

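RNA sequencing of 9 libraries was used. The authors deposited one table of FPKM (fragments per kilobase of transcript, scaled to library size), made with GSNAP and Cufflinks, per the submitters' processing notes. For their versions, the genome build, the annotation, strand use and the split of reads between overlapping or near-identical genes, nothing is given in the sources used here. Libraries were prepared from Trizol-extracted total RNA with a Lexogen SENSE mRNA kit, per the labels' protocols. Because FPKM were given and not counts, tests for normalized values were used, and the reads behind a value are unknown.

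The value 999999999 was read as missing, which left out 4 genes (Dync1h1, Dst, Dmpk and Plec, 10 cells), and 4 duplicate all-zero rows were removed. In 31 genes with a median over 5 FPKM a library was listed at 0, so a listed 0 may be a failed estimate. Genes averaging at least 1 FPKM were tested on log2(FPKM + 1) with limma 3.58.1 (limma-trend, R 4.3.3), two-sided, with all 9 libraries in one fit on group, Benjamini-Hochberg over 11376 genes and a threshold of 0.05. The procedure was also tested on simulated data. Libraries follow the column name in each sample record.

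The comparison, the 48 gene lists (1098 entries, 1076 in the table, 853 tested) and the rule for named genes were chosen with earlier results of these data known, so lists are described by counts and medians only. Symbols were matched without regard to case, and of 43 list genes with more than 1 identifier the one with the highest mean was used. Named by rule were the 15 called genes with the largest difference in each direction (symbol, at least 5 FPKM in the higher set, no overlap), up to 4 called members of each list, the 12 genes with the largest difference of each orientation on opposite sides of control, and a fixed set of smooth muscle, receptor and cycle genes, 183 in all, of which a part is printed. Promoters came from the RefSeq table (GRCr8). The alternatives were pseudocounts of 0.1 and 5, no filter or a mean of at least 5 FPKM, median ratio, quantile and common-sum scaling, a replicate block, the 6 treated libraries alone, and leaving out each library.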

Additional observations from a re-analysis of the deposited data

How the results depend on the processing

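Between PDGF-NS and IGF-NS, the number of genes called was 1014 without PDGF-NS library 3, and it ranged from 1014 to 2143 when each library was left out in turn, against 1807. The number with a log2 difference of at least 1 was 390 with a pseudocount of 5, which shrinks low genes by construction, and 632 to 738 on leaving out a library, against 727. The number on opposite sides of control was 40 without control library 2, 50 without control library 3 and 47 without PDGF-NS library 3, within a range of 40 to 82 on leaving out each library, against 81, and it was 85 with median ratio, 87 with quantile and 91 with common-sum scaling; the cause was not tested. Of the 177 named genes called between the sets, 143 kept the call in every alternative in which they were tested and 34 lost it in at least 1. Among named genes 1 changed sign, Srf, which ranged from −0.027 without IGF-NS library 2 (adjusted p = 0.96) to 0.345 without IGF-NS library 3. Of 1656 counts of list members under an alternative, 1446 stayed within 1.5 times the reported count. The median of all genes was −0.14 with one common sum, and the medians of the basement membrane, respiratory chain and circadian clock lists changed sign with the scaling. Depth is unknown, so what it limits could not be measured.

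Replicate numbers are shared between the sets, and no sign that they pair the libraries was seen. Deviations of same-numbered PDGF-NS and IGF-NS libraries from their set means correlated across genes at −0.12, −0.07 and 0.07. Libraries of unlike number correlated at −0.13 to 0.18. With 3 libraries in a set, this check cannot show that the libraries were unpaired. With the replicate number as a block, 1530 genes were called (822 higher and 708 lower), 721 of them with a log2 difference of at least 1, and 77 genes lay on opposite sides of control.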

Other observations

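Guidance cues and their receptors, which steer axons and also vessel cells, differed in both directions: of 25 tested, 6 were higher in PDGF-NS and 7 were lower. Slit3, a secreted ligand of Robo receptors, was at 15.4, 10.7 and 20.8 FPKM in IGF-NS and 1.63, 1.79 and 2.17 FPKM in PDGF-NS (log2 −2.50 ± 0.22, adjusted p = 7.4e-05). Efnb2, an ephrin of arterial cells, was at 50.2, 55.8 and 43.5 against 15.1, 12.8 and 11.6 FPKM (log2 −1.84 ± 0.13, adjusted p = 2.5e-05), and the ephrin receptor Epha4 was 6.01-fold lower in PDGF-NS. Sema5a, a semaphorin, was on the higher side, at 2.26, 4.41 and 5.64 against 8.87, 20.8 and 17 FPKM. In the BMP and TGF-beta list 3 of 30 genes were higher and 5 lower, and 2 inhibitors of these pathways went in opposite directions: Fst, follistatin, was 3.28-fold higher in PDGF-NS, whereas Bambi, a pseudoreceptor, was 3.29-fold lower. The higher count of that list was 5 without IGF-NS library 3.

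Of 15 heat shock and early stress genes tested, 5 were higher in PDGF-NS and 1, Cryab, was lower, against 8.33% and 7.55% of all genes. Small heat shock protein Hspb1 was at 132, 147 and 212 FPKM in IGF-NS and 530, 610 and 726 FPKM in PDGF-NS (log2 1.94 ± 0.22, adjusted p = 0.00027), with control at 428 to 647 FPKM. Cryab was at 146, 186 and 202 against 112, 84.4 and 74 FPKM (log2 −0.98 ± 0.24, adjusted p = 0.019), with control at 278 to 514 FPKM. The call of Cryab held in 14 of 18 alternatives. Of the clock genes, 2 of 15 were higher and 2 lower: Bhlhe40, a repressor of the clock, was 3.66-fold higher in PDGF-NS, and Per3, a period gene, 2.16-fold lower. The lower clock count was 1 without IGF-NS library 3 or any one PDGF-NS library, and the higher count was 3 without IGF-NS library 3. Ribosomal protein genes (2 of 36 higher, 0 lower) and respiratory chain genes (1 of 30 higher, 0 lower) were called higher at a share below the 8.33% of all genes. These counts were 0 to 3 and 0 to 2 on leaving out each library. RPL38, a ribosomal protein gene under a symbol in capitals in the table, was outside that list and was called lower in PDGF-NS. RPL38 was listed at 0 in all control and PDGF-NS libraries and at 4.38, 5.66 and 6.98 FPKM in IGF-NS, and as a gene that every cell uses its 0 may be a failed estimate.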
